A study of Macaca mulatta with 6 samples.

Results

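The serpins described here were SERPINA3, SERPINE2, SERPINF1, SERPINH1, SERPINI1, SERPINB1 and SERPINB6, followed through every probe set that the array's annotation gives to 1 of these symbols. Of the 7 genes, 6 had a probe set, with 16 probe sets in all among 52024 on the array: 5 for SERPINA3, 4 for SERPINE2, 3 for SERPINH1, 2 for SERPINI1 and 1 each for SERPINF1 and SERPINB6. SERPINB1 was carried by no probe set in the annotation used and was not analysed here. The genes were chosen with treated minus control differences of these same arrays known, so those differences are given as a description. No p-value of a single serpin probe set on that contrast is printed, and nothing is read from the counts past a threshold.

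The retinas came from 3 male rhesus macaques aged 8 to 10 years, in each of which the intraorbital optic nerve of 1 randomly chosen side was irradiated by gamma knife at a prescribed dose of 15 Gy. The treated retinas were those on the irradiated side, and the control retinas were those of the other eye of the same animals, all removed 24 h later. Eyes of treated retinas were themselves given 3 Gy, against 1 Gy for eyes of control retinas, so the effects of the nerve irradiation and of the retinal dose cannot be told apart, and no unirradiated animal serves as a control. RNA of the temporal retina, dissected without the retinal pigment epithelium, was hybridized to 1 array per retina, 3 treated and 3 control, and replicate numbers 1 to 3 pair both retinas of a monkey. Values are log2 of the MAS 5.0 signal, the brightness of a probe set after each array was scaled to a common mean. Signals of different probe sets are not on a common scale. The brightest probe set of a gene means the 1 of highest mean signal, which is no measure of which transcript was more abundant.

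Serpins are a family of proteins named for their serine protease inhibitors. An inhibitory serpin presents an exposed loop as bait, and the protease that cleaves it is trapped in a complex that clearance receptors then remove. Some members have lost this activity and serve as hormones, neurotrophic factors or chaperones. In neural tissue they are known for restraining thrombin, plasminogen activators and leukocyte proteases. SERPINA3, or alpha-1-antichymotrypsin, inhibits cathepsin G and mast cell chymase, is released by the liver in the acute phase response, and has a mouse counterpart, Serpina3n, that is a well-known marker of reactive astrocytes.

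The arrays showed retina, by the summed linear signals of 10 photoreceptor markers. These were 196919, 220914 and 250431 in the treated retinas of replicates 1 to 3, against 227370, 259132 and 266737 in the control retinas. The ranges overlapped, but the treated sum was lower in every pair. Of the 10 markers, 1 had a mean difference above 0, beside 7838 of 14132 named genes. Markers of retinal ganglion cells went the other way, with 7 of 7 measured above 0. Their sums were 32346, 35666 and 28283 in treated retinas, against 29117, 29276 and 24498 in control retinas. The median log2 signal of an array was between 6.44 and 6.98 in treated retinas and between 6.69 and 7.03 in control retinas. The lowest of these, 6.44, was that of the treated array of replicate 2, which also had the most signals under log2 5 (29.7%). In whole retina, fewer cells of a type and less RNA per cell cannot be told apart. The precision is limited by the number of arrays.

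The SERPINA3 probe sets did not give 1 answer. Of the 5, 2 were several-fold higher in the treated retina of every monkey, and the other 3, the brightest of the 5 included, had differences on both sides of 0. Probe set MmuSTS.2150.1.S1_at read 11.61, 12.38 and 11.38 in the treated retinas of replicates 1 to 3, against 9.18, 8.75 and 8.96 in the control retinas. The treated and control ranges did not overlap, and replicate 2 had both the highest treated and the lowest control signal. The mean difference was 2.83 ± 0.70 on the log2 scale (SD, n = 3 pairs), a fold of 7.09, with folds of 5.37, 12.4 and 5.35 within the pairs.

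Probe set Mmu.10083.1.S1_s_at read 11.23, 12.36 and 11.50 in the treated retinas, against 8.43, 8.31 and 9.26 in the control retinas. Here too the groups did not overlap, and the retinas of replicate 2 lay furthest apart. The mean difference was 3.03 ± 0.92 (SD, n = 3 pairs), a fold of 8.18, with folds of 6.96, 16.6 and 4.75 within the pairs. The suffix _s_at is the manufacturer's mark for probes that can recognise more than 1 transcript. Taken pair by pair, the difference seen by MmuSTS.2150.1.S1_at minus that seen by Mmu.10083.1.S1_s_at was −0.38, −0.42 and 0.17.

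The brightest SERPINA3 probe set, MmugDNA.42838.1.S1_at, read 12.16, 12.30 and 12.03 in the treated retinas, against 12.07, 11.99 and 12.23 in the control retinas. The groups overlapped, and the mean difference was 0.065 ± 0.258 (SD, n = 3 pairs). Probe set Mmu.85.1.S1_at read 11.19, 9.03 and 9.06 in the treated retinas, against 10.83, 9.44 and 9.30 in the control retinas, a mean difference of −0.10 ± 0.40. Both retinas of replicate 1 stood above the other 4 in this probe set. Probe set Mmu.10083.1.A1_at read 8.04, 8.68 and 8.0 in the treated retinas, against 8.41, 8.16 and 7.92 in the control retinas, a mean difference of 0.07 ± 0.44. Its name shares the cluster stem Mmu.10083 with Mmu.10083.1.S1_s_at, 1 of the 2 probe sets that were higher in every pair. The names differ after that stem, with A1 against S1. Whether both probe sets target the same sequence was not looked up.

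**Figure D1:**
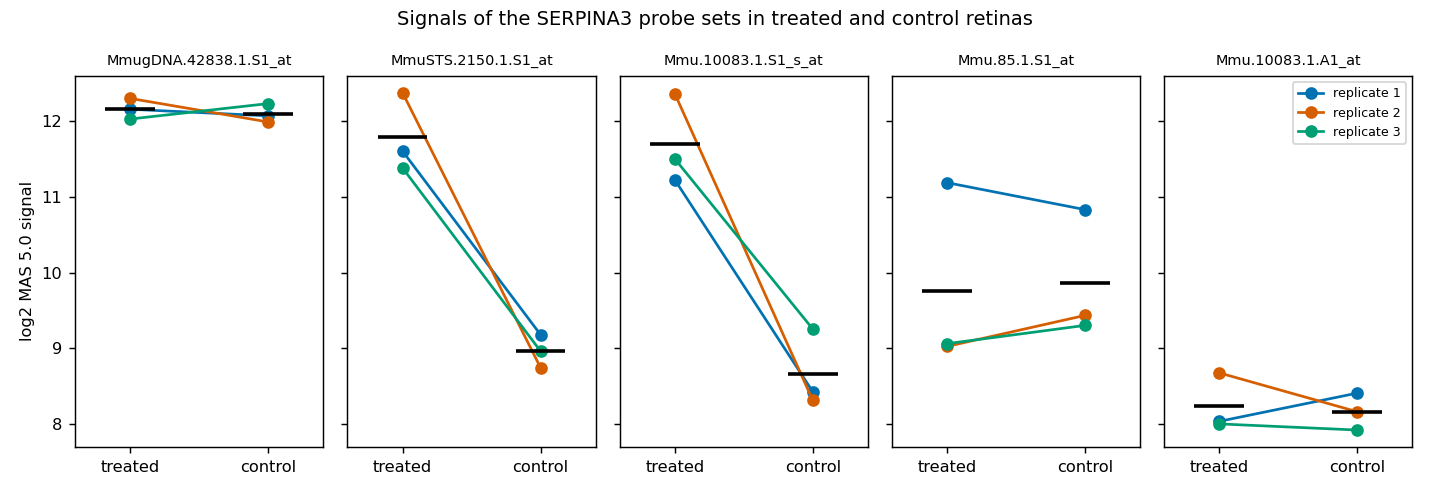
Log2 MAS 5.0 signal (vertical axis) of the 5 SERPINA3 probe sets, 1 panel each, in treated and control retinas; points are single retinas, lines join both retinas of a replicate number and black bars are the means of 3. In MmuSTS.2150.1.S1_at and Mmu.10083.1.S1_s_at every treated retina lies above every control retina, and in the other 3 panels the groups overlap.

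Across pairs, the 2 probe sets that were higher had differences of 2.25 to 4.05, and the other 3 had differences of −0.41 to 0.51, with 5 of 9 above 0. A gene-level value therefore depends on which probe sets stand for SERPINA3: the brightest gives 0.065, the mean of the 5 gives 1.18 and their median gives 0.07. In limma, blocked by replicate number and adjusted by Benjamini-Hochberg over the whole array, 2 of the 16 serpin probe sets had an adjusted p under 0.05. Both were of SERPINA3 and higher, beside 0.111% of all probe sets past that threshold, 0.11% higher and 0.00192% lower. The count was also 2 of 16 at an unadjusted p under 0.05, beside 6.74% of all probe sets. The same 2 were the members with all treated retinas above all control retinas, beside 3.11% of all probe sets. No member had all treated retinas below all control retinas, beside 3.53% of all probe sets. Because these genes were chosen on this contrast, nothing is read from those counts. Without replicate 1, Mmu.10083.1.S1_s_at was no longer past the threshold, with a difference of 3.15, while MmuSTS.2150.1.S1_at still was, with 3.03. Without the block, with low signals set to a floor, or with a variance prior without trend, neither probe set was past it.

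The same comparison can be made for every gene that has several bright probe sets. Among 2668 genes with 2 or more probe sets of mean log2 signal 8 or more, the highest minus the lowest difference of a gene's probe sets had a median of 0.17. It was 3.13 for SERPINA3, the widest of the 2668. This is a description, since SERPINA3 was chosen on the same differences and a range widens with the number of probe sets, of which SERPINA3 had 5. Among the 99 genes with 5 or more bright probe sets, a comparison added after seeing the data, the median of the others was 0.41 and the widest was 1.16. GFAP, the intermediate filament of astrocytes and activated Müller glia, came next with 2.05, and SOD2, the mitochondrial superoxide dismutase, followed with 1.87. With dim probe sets included, 37 of 6375 genes had a range as wide as that of SERPINA3. Of 20 genes with bright probe sets of which at least 1 was past the threshold, 11 also had a probe set within 0.5 of 0, and in 6 the brightest probe set was not past it. The reason for the spread within SERPINA3 was not tested.

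**Figure D2:**
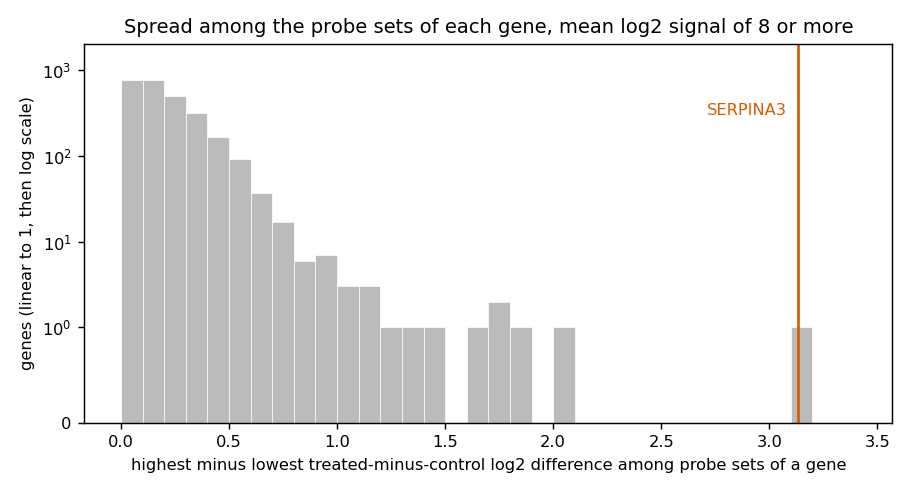
Number of genes (vertical axis, linear to 1 and logarithmic above) by the range of the treated minus control log2 difference among the probe sets of a gene (horizontal axis, bins of 0.1), for 2668 genes with 2 or more probe sets of mean log2 signal 8 or more. The vertical line marks SERPINA3 at 3.13, with the next gene at 2.05.

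Other cell types were read beside SERPINA3. Of 12 leukocyte markers measured, 9 were above 0 with a median difference of 0.85, beside 7838 of 14132 named genes and a median of 0.03. By the unadjusted p of limma 5 were higher and 0 lower, beside 5.02% and 3.01% of all named genes, and 0 passed by the adjusted p. The summed linear signal of the 12 was between 5260 and 13479 in treated retinas, against 2888 to 4698 in control retinas. These sums did not overlap, but most of each was LYZ, the lysozyme of macrophages and neutrophils, which had a difference of 1.27 (adjusted p = 0.075, limma). Without LYZ the sums were 1885, 1858 and 1508 in treated retinas, against 1537, 1116 and 1109 in control retinas, higher in 3 of 3 pairs with overlapping ranges. The median log2 signal of the 12 markers overlapped too, at 6.90 to 7.50 in treated retinas and 5.99 to 7.32 in control retinas. The part of leukocytes in the SERPINA3 difference was not tested. Markers of hepatocytes, the main source of circulating SERPINA3, summed to between 290 and 559 in treated retinas and between 274 and 593 in control retinas, with 6 of 9 genes at a mean log2 signal under 5. Markers of Müller glia, the radial glia of the retina, summed to between 90485 and 119479 in treated retinas and between 96700 and 122863 in control retinas. Single markers went both ways. Of 10 measured, 2 were higher and 3 lower by the unadjusted p of limma, beside 5.02% and 3.01% of all named genes, and 0 by the adjusted p. SLC1A3 was at 0.58 and CRYM at 0.27, against RLBP1 at −0.45, KCNJ10 at −0.54 and GLUL at −0.28. Their part in the SERPINA3 difference was not tested.

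The other inhibitory serpins of neural tissue showed small differences. SERPINE2, or protease nexin-1, inhibits thrombin and plasminogen activators and is made by glia and neurons. Its probe set MmuAffx.23.8.S1_s_at read 10.68, 11.12 and 10.63 in treated retinas, against 10.51, 11.11 and 10.72 in control retinas, a mean difference of 0.04 ± 0.13 (SD, n = 3 pairs). The treated and control retinas of each monkey lay close together, and replicate 2 was highest on both sides. The other 3 SERPINE2 probe sets had mean differences of −0.12, −0.02 and −0.03, with 1 of 3 pairs higher in each. All 4 probe sets of this gene therefore lay between −0.12 and 0.04.

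SERPINI1, or neuroserpin, is a neuronal inhibitor of tissue plasminogen activator. Probe set MmugDNA.18538.1.S1_s_at read 10.70, 10.88 and 10.95 in treated retinas, against 10.67, 10.86 and 10.93 in control retinas, a difference of 0.02 in the mean. The treated retina was higher by 0.02 to 0.03 in 3 of 3 pairs. Its companion MmugDNA.18538.1.S1_at gave −0.40, 0.04 and 0.38 in the pairs, a mean of 0.01 ± 0.39. SERPINB6, an intracellular serpin that inhibits cathepsin G in human cells, read 8.86, 8.56 and 8.83 in treated retinas, against 8.62, 8.48 and 8.55 in control retinas. It was higher in 3 of 3 pairs, by 0.20 ± 0.10 in the mean, and the groups overlapped at replicate 2.

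Of the serpins that do not inhibit proteases, SERPINF1 encodes pigment epithelium-derived factor, a neurotrophic and antiangiogenic protein made largely by the retinal pigment epithelium. It read 11.48, 11.20 and 12.09 in treated retinas, against 11.72, 11.25 and 12.15 in control retinas. The treated retina was lower in 3 of 3 pairs, by 0.24, 0.05 and 0.05, but the ranges of the groups overlapped almost wholly. The pigment epithelium had been removed, and the summed signal of its 10 measured markers was 5162, 9561 and 7562 in treated retinas, against 8531, 7722 and 9872 in control retinas. That sum moved with SERPINF1 in replicates 1 and 3 and against it in replicate 2, and its part in the SERPINF1 signal was not tested.

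SERPINH1, or HSP47, is a chaperone of the endoplasmic reticulum that assists collagen folding. Its brightest probe set, MmuSTS.4620.1.S1_at, read 9.98, 10.33 and 10.33 in treated retinas, against 9.96, 10.31 and 10.37 in control retinas, with pair differences of 0.03, 0.02 and −0.04. A second probe set, MmunewRS.723.1.S1_at, had a mean difference of −0.02 ± 0.34. The third, Mmu.9314.1.S1_at, read 5.61, 1.33 and 4.59 in treated retinas, against 6.89, 4.67 and 4.49 in control retinas, a difference of −1.50 ± 1.73. Its mean signal was under 5, where the SD of the 3 pair differences had a median of 1.43 over all probe sets, against 0.22 at log2 signals of 8 to 11.

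Leaving SERPINA3 aside, 0 of 11 serpin probe sets had an adjusted or an unadjusted p under 0.05 in limma, beside 0.111% and 6.74% of all probe sets, and nothing is read from that count either. The 10 with a mean signal of 5 or more had mean differences of −0.12 to 0.20 and pair differences of −0.40 to 0.38. Every one of those pair differences was smaller than the 2.25 that was the smallest of the 2 high SERPINA3 probe sets. The median over the 16 probe sets was 0.0054, beside −0.038 over all probe sets.

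**Figure D3:**
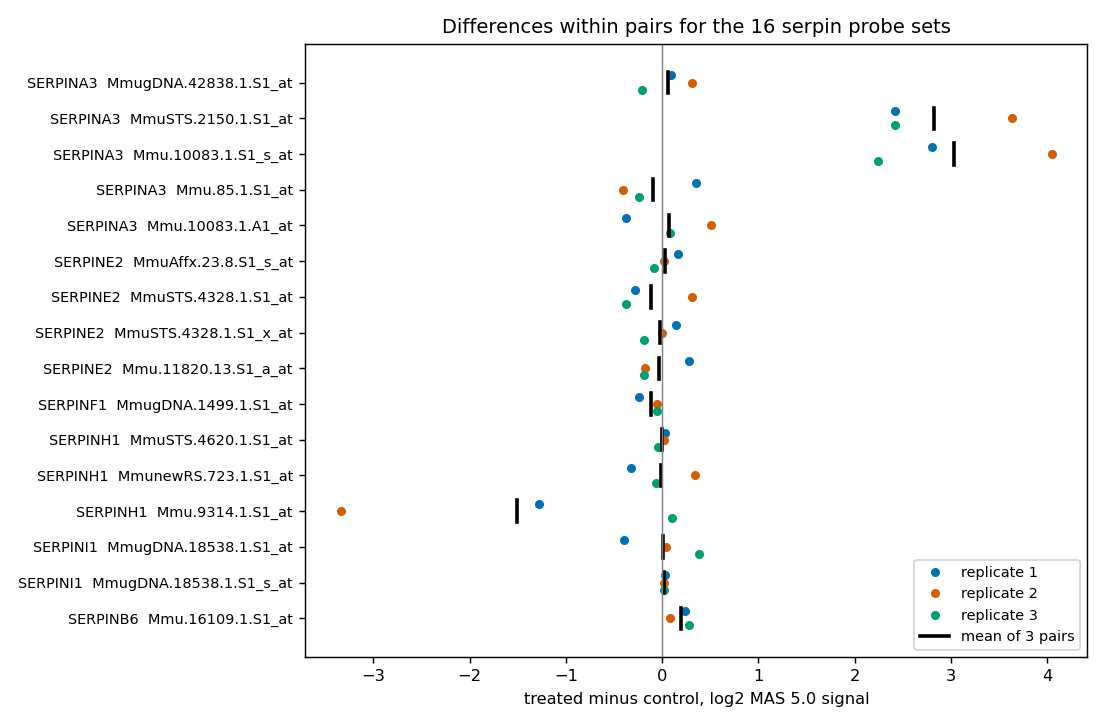
Treated minus control log2 difference (horizontal axis) within each of 3 pairs for the 16 serpin probe sets; coloured points are replicate numbers, offset vertically, and black bars are means. MmuSTS.2150.1.S1_at and Mmu.10083.1.S1_s_at lie at 2.25 to 4.05, and the other probe sets with a mean signal of 5 or more lie between −0.41 and 0.51.

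The difference between monkeys is another contrast than the one on which the genes were chosen. Its test is not independent of that choice, since its error term comes from the spread of the treated minus control differences between pairs. An F-test of the replicate number in the same limma fit, added after the data had been seen, gave 4 of 16 serpin probe sets an adjusted p under 0.05 over all probe sets, beside 13.4% of all probe sets. Replicate number stands for the monkey and for anything handled with its pair of retinas, which cannot be told apart. Probe set Mmu.85.1.S1_at of SERPINA3 averaged 11.01, 9.23 and 9.18 over both retinas of replicates 1, 2 and 3 (adjusted p = 0.00284). SERPINF1 averaged 11.60, 11.23 and 12.12 (adjusted p = 0.007). For SERPINE2, MmuSTS.4328.1.S1_x_at averaged 10.22, 11.04 and 10.42 (adjusted p = 0.0136) and MmuAffx.23.8.S1_s_at averaged 10.59, 11.12 and 10.68 (adjusted p = 0.0477).

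The 2 SERPINE2 probe sets agreed in placing replicate 2 highest. In each of these 4 probe sets the F-test thus set at least 1 replicate number apart, not every replicate number from every other. In Mmu.85.1.S1_at, replicates 2 and 3 averaged 9.23 and 9.18, while the treated minus control difference of replicate 2 was −0.41. The 2 SERPINA3 probe sets with high treated signals were not among the 4. That does not show that monkeys were alike in those 2, whose pair differences had SDs of 0.70 and 0.92. Without replicate 1 the count of probe sets that differed between replicate numbers was 0 of 16, beside 0.154% of all probe sets. Without replicate 2 it was 6, beside 23.8%, and Mmu.10083.1.S1_s_at of SERPINA3 was 1 of these 6 (adjusted p = 0.00596, F-test). Without replicate 3 it was 5, beside 15.0%. With low signals set to a floor, or without the trend in the variance prior, it was 0 and no probe set of the array passed. At an unadjusted p under 0.05, the floor left 6 of 16, beside 24.0% of all probe sets, and the fit without trend left 3, beside 18.4%.

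**Figure D4:**
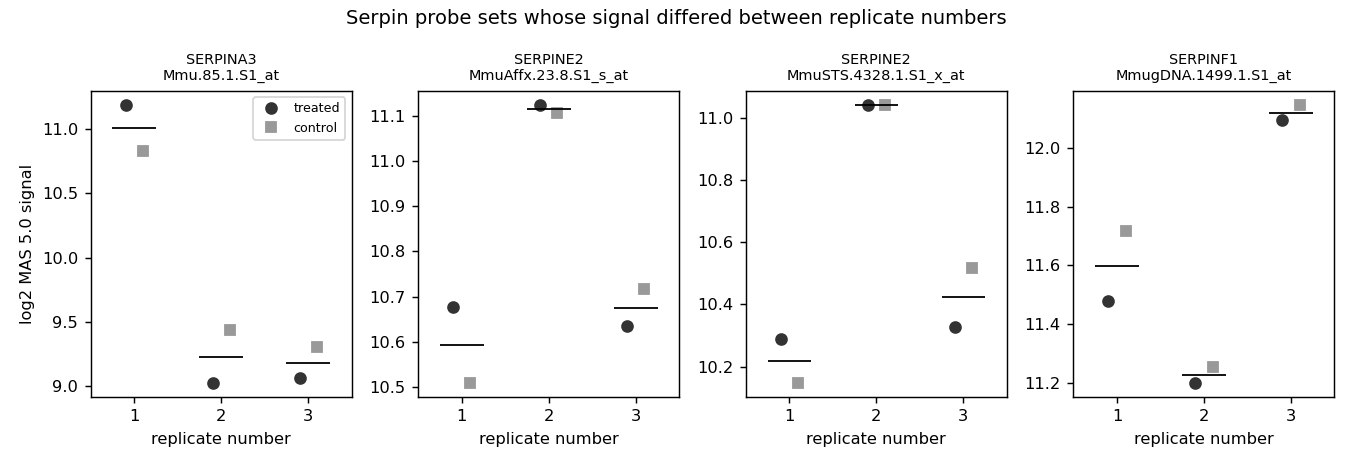
Log2 MAS 5.0 signal (vertical axis, a separate scale in each panel) by replicate number for the 4 serpin probe sets that differed between replicate numbers; circles are treated retinas, squares are control retinas and bars are the mean of both. SERPINE2 was highest in replicate 2, SERPINF1 in replicate 3 and Mmu.85.1.S1_at of SERPINA3 in replicate 1.

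The genes that serpins act with were read from lists, with each gene represented by its brightest probe set. Of 119 genes measured in 7 lists, 0 had an adjusted p under 0.05 in limma, beside 0.205% of all named genes that were higher and 0.00708% that were lower. By the unadjusted p of limma, 13 were higher and 5 were lower, beside 5.02% and 3.01% of all named genes, whose median difference was 0.03. The methods' paired t-test gave 9 of 119 an unadjusted p under 0.05, beside 7.05% of all named genes.

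Among other serpins, 21 of 29 were measured, 9 were above 0, and 1 was higher by the unadjusted p, with a median of −0.20. That gene was SERPING1, the inhibitor of complement C1 proteases, at 10.55, 11.51 and 10.48 in treated retinas, against 9.38, 8.98 and 8.88 in control retinas. Its difference was 1.77 ± 0.70 (adjusted p = 0.0588), and like the 2 high SERPINA3 probe sets it was largest in replicate 2. Genes that are not serpins, such as C1S, CEBPD and HAMP, were also largest in replicate 2, while OSMR and CP were not. The treated array of replicate 2 had the lowest median signal, and its part in this was not tested. AGT, the noninhibitory serpin that is the precursor of angiotensin, had a difference of 0.50 (adjusted p = 0.752). The list's median was −0.085 after quantile normalization and 0.0046 without replicate 2, and 11 of its genes had a mean signal under 5.

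SERPINA1, the inhibitor of neutrophil elastase, was looked at after its values were seen because it too had several probe sets, 6 in all. Their mean differences were −0.056, −0.11, 0.77, 0.82, −0.35 and 0.40, in falling order of brightness. In the third of these, MmugDNA.24291.1.S1_s_at, the treated retinas read 8.86, 8.35 and 8.30, against 8.21, 7.43 and 7.55 in the control retinas, which was higher in 3 of 3 pairs without passing the threshold (adjusted p = 0.424).

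The proteases that serpins act on had 21 of 32 genes measured, 2 higher and 1 lower by the unadjusted p, and a median of −0.03. C1S, a complement protease that SERPING1 inhibits, led them with 1.53 (adjusted p = 0.123), and the lysosomal protease gene CTSL followed with 0.33 (adjusted p = 0.716). The SERPINF1 receptors had 5 of 6 genes measured, 0 higher and 1 lower, and a median of −0.083. The 1 lower gene was LRP6, at −0.29. PLXDC2 was at −0.49 ± 0.87 (SD, n = 3 pairs) and higher in 1 of 3 pairs. The clearance receptors had 5 of 9 genes measured, 0 higher and 2 lower, and a median of −0.18, with SORL1 at −0.45 and LRP2 at −0.33. None of these 4 receptors had an adjusted p under 0.05.

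Collagens and collagen folding genes, the setting of SERPINH1, had 28 of 32 measured, 2 higher and 0 lower by the unadjusted p, and a median of 0.10. PLOD2, a collagen lysine hydroxylase, was at 0.29 and PPIB, a prolyl isomerase of the endoplasmic reticulum, was at 0.27, each with an adjusted p of 0.730. Cytokine inducers of acute phase genes had 23 of 29 measured, 4 higher and 1 lower, and a median of 0.26. CEBPD, a transcription factor of the acute phase response, read 10.73, 11.31 and 10.12 in treated retinas, against 8.79, 9.24 and 9.18 in control retinas (difference 1.64, adjusted p = 0.0547), and OSMR, the oncostatin M receptor, had a difference of 1.07 (adjusted p = 0.0638). For both genes the treated and control ranges did not overlap.

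Acute phase proteins, the class to which SERPINA3 belongs, had 16 of 24 measured, 4 higher and 0 lower by the unadjusted p, and a median of −0.066. HAMP, the iron regulator hepcidin, read 8.94, 9.36 and 8.72 in treated retinas, against 7.14, 7.31 and 7.53 in control retinas (difference 1.68, adjusted p = 0.0539). CP, the copper ferroxidase ceruloplasmin, had a difference of 1.82 (adjusted p = 0.0588) by its brightest probe set, and 3 other of its probe sets had an adjusted p under 0.05.

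**Figure D5:**
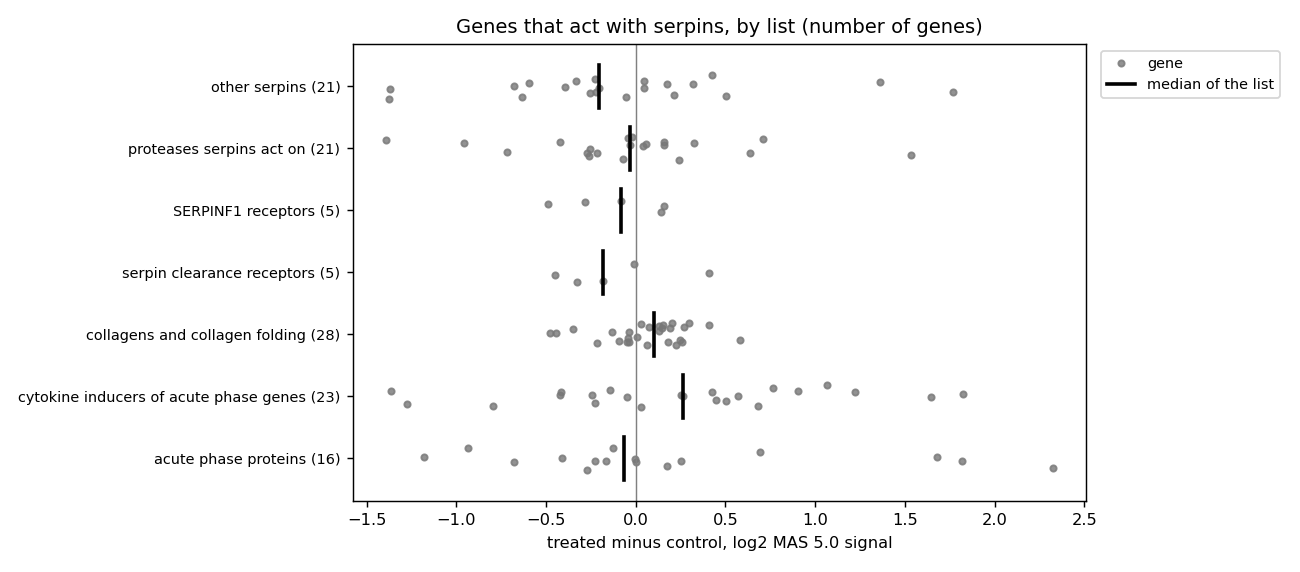
Mean treated minus control log2 difference (horizontal axis) of each gene in 7 lists, by its brightest probe set; points are genes, offset vertically, and black bars are list medians. The list medians lie between −0.20 and 0.26, and single genes such as SERPING1 at 1.77 and CP at 1.82 lie far from them.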

How the data were processed

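Total RNA of 6 retinas, 3 treated and 3 control, was hybridized to the 1-colour Affymetrix Rhesus Macaque Genome Array. The authors normalized each array with the MAS 5.0 algorithm in Gene Spring Software 11.0 and deposited log2 signals, which were used unchanged. The sources used here do not give a version of the MAS 5.0 implementation itself. Present or absent calls were left aside. MAS 5.0 scales arrays to a common mean but does not align their distributions, and its low signals scatter widely. Between 22.6% and 29.7% of an array's signals were under log2 5.

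The limma package (3.58.1, run in R 4.3.3) fitted treated minus control differences for all 52024 probe sets, blocked by replicate number, using lmFit and then eBayes with a trend. P-values were adjusted by Benjamini-Hochberg over all of them. Treated and control retinas were paired because the methods pair both retinas of a monkey. Deviations from the group means correlated at 0.357, 0.137 and 0.161 between arrays of the same number, and at −0.243 to 0.104 between different numbers. With no replicate block, 0 of 52024 probe sets and 0 of 16 serpin probe sets had an adjusted p under 0.05, and 1275 and 2 had an unadjusted p under 0.05.

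By the platform annotation, 24956 probe sets had 1 symbol, 361 had several and 26707 had none, which named 14132 genes. The reference gene table held 98.6% of the singly named ones. A gene outside the serpin list was represented by its probe set of highest mean signal. Every serpin probe set was named. In each of the 7 gene lists, up to 4 genes past the threshold were named, or the 2 with the largest moderated statistic where none passed, and the 5 genes most correlated with SERPINA3 were named too. Both the serpin genes and the lists were chosen with earlier results of these data known. Alternatives were quantile normalization, centring on array medians, a floor at log2 5, no trend, leaving out dim probe sets, no block, each replicate number left out, and the methods' paired t-test. The F-test of replicate numbers, the spread among probe sets of a gene, leukocyte sums without LYZ and a second pattern for correlated genes were chosen after seeing the data. The scripts were tested on simulated data. Plots used matplotlib 3.10.9 (Python 3.11.15).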

Additional observations from a re-analysis of the deposited data

How the results depend on the processing

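Both high SERPINA3 probe sets kept their direction under every alternative run, which is no support for it. Their pair differences were all between 2.25 and 4.05, so leaving out 1 replicate number could not change the direction. Dropping the block or the trend leaves the mean difference unchanged. With 1 replicate number left out, the differences were 2.42 to 3.03 for MmuSTS.2150.1.S1_at and 2.52 to 3.43 for Mmu.10083.1.S1_s_at. The count of 2 serpin probe sets past the threshold was 2 after quantile normalization, median centring and leaving out dim probe sets, and 1 to 2 with 1 replicate number left out. It was 0 with no replicate block, with a floor at log2 5, without the trend, and in the methods' paired t-test after adjustment, which found 3 unadjusted. Over all probe sets the count of 58 was 0 under each of those 4, 17 to 222 with 1 replicate number left out, 2891 in the paired t-test unadjusted, and 651 with a fold over 2 added. The count of 0 list genes was 2 after quantile normalization, 4 after centring, 1 to 6 with 1 replicate number left out, 9 in the paired t-test unadjusted and 5 with a fold over 2. The 4 serpin probe sets that differed between replicate numbers became 0 with the floor or without the trend, and 0 to 6 with 1 replicate number left out. The cause of these shifts was not tested. Of the other values, 145 moved by less than the spread between pairs and 8 moved by more. Some of the 145 could not move, so they are no measure of robustness. Dropping the block leaves a mean difference unchanged, and a floor at log2 5 leaves bright probe sets unchanged. With 3 pairs, and with dim signals scattering by 1.43 in the SD of pair differences, small changes are not resolved, least of all in Mmu.9314.1.S1_at of SERPINH1.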

Other observations

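The genes whose signals over the 6 arrays were most like those of SERPINA3 depended on the probe set used. For the brightest SERPINA3 probe set, the highest Pearson correlations among 9680 genes were those of FAM200A (0.995), PDCD2L (0.993), SOD1 (0.978), SLX1A (0.968) and HSP90B1 (0.966), whose treated minus control differences were 0.12, 0.10, 0.05, 0.18 and 0.05. For the mean of the 2 SERPINA3 probe sets past the threshold, chosen after seeing the data, they were S100A11 (0.997), CCDC22 (0.996), LOC716834 (0.994), B2M (0.994) and ADAMTS1 (0.994). These genes had differences of 0.79, 0.32, 1.41, 1.35 and 0.92. B2M, the light chain of MHC class I molecules, was the 1 of these 5 past the threshold (adjusted p = 0.0238, limma), beside 0.205% of all named genes that were higher. The 2 probe sets of this pattern had passed the same threshold, so the genes most like it are bound to be higher in treated retinas. Nothing is read from that count or from the contrast with the genes most like the brightest probe set. These correlations span 6 arrays that share their pairing and group labels, and they are given as a description.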
